A study of Rattus norvegicus with 30 samples.

Results

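Ribosome biogenesis genes encode the nucleolar factors that make ribosomal RNA and assemble it into subunits. They were followed here in rat heart after 1 dose of isoproterenol hydrochloride, a drug that stimulates beta-adrenergic receptors. The members were a list of 48 such factors, taken by gene symbol. The list was chosen with earlier results of these data known. Its counts beside those of all genes are therefore descriptions and not independent support. Probe sets on the array named 47 of them, out of 14217 genes named by a probe set of their own, and 60 probe sets stood for these 47 genes. Npm1 was left without a value because its probe sets were shared with a pseudogene. All 60 probe sets passed the filter on dim signal, which left 12451 genes in all. The mean level of 1 member, Noc3l, lay under the level at which that filter was set.

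RNA polymerase I transcribes the long ribosomal RNA precursor in the nucleolus. Box C/D particles guide its methylation and box H/ACA particles its pseudouridylation, the small subunit processome folds and cuts its 5′ part, and separate sets of factors bring the small (40S) and large (60S) subunits to the point of export. In heart muscle this pathway is known to be raised when cells grow, and MYC, a transcription factor induced by growth stimuli, is a known regulator of many of its genes.

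Hearts of male Crl:Wi(Han) rats were taken 1, 3, 24 or 72 h after isoproterenol or vehicle, and tissue was kept in RNAlater. Total RNA (Qiagen kit) was hybridised as biotin-labelled cRNA to 30 single-colour Affymetrix rat expression arrays, 1 per sample. Vehicle groups had 3 arrays each, and the isoproterenol groups had 5 arrays at 1 and 72 h and 4 arrays at 3 and 24 h. The dose stands in the labels as 0.5 mg/kg/ml and in the series text as 0.5 mg, and the series text puts the last time at 48 h where the labels have 72 h, which is used here. The arrays are titled biological replicates, but no source used here says that each was 1 animal. Where samples shared an animal, the p-values cover technical spread alone.

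Levels are quantile normalized log2(intensity + 16), called log2 levels below, and changes are isoproterenol minus vehicle at the same time on that scale, ± the standard error of the limma fit. That scale understates the change of dim genes. The precision is limited by the number of arrays. A gene rose or fell where its Benjamini-Hochberg adjusted p in limma, over all probe sets tested, was under 0.05, and each gene was read from its brightest probe set. In whole heart, more cells of a type and more RNA per cell cannot be told apart.

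The labelled tissue was checked by its markers: the 7 measured cardiomyocyte markers, among them Myh6 and Tnnt2, were bright, with a summed log2 intensity of 15.68 to 15.96 in every group. Before normalization the array medians lay between 21.2 and 70.3 intensity units, and within groups the arrays correlated at 0.934 or above. The third isoproterenol array at 24 h stood apart, with a mean log2 level over the 47 genes of 7.71 against 8.13 to 8.39 in the other arrays of its group. The chip names in the labels number all vehicle arrays below all isoproterenol arrays, so any effect of that numbering and treatment cannot be told apart.

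Promoters were searched for a few known motifs, the E-box bound by MYC among them. The RefSeq table (build GRCr8) held 45 of the 48 promoters, taken as the 250 bases before the start. Wdr43, Bop1 and Rrs1 had no entry. The E-box CACGTG occurred on either strand in 9 of 45 (20%), against 5.79% of all 27457 promoters in the table and 7.82% of the 11734 belonging to genes with a probe set. Its share was 13.9% (11 of 79) among other assembly factors and 5.26% among cytosolic ribosomal protein genes. The E-box was as frequent among members that rose at 3 h (4 of 20, 20%) as among members that did not (5 of 24, 20.8%). At 24 h it was in 2 of 18 that rose (11.1%) and in 7 of 26 that did not (26.9%). The ETS motif CCGGAAG occurred in 17 of 45 (37.8%), against 7.74% of all promoters, 12.9% of those of genes with a probe set and 45.6% of those of the other assembly factors described further on. The cAMP response element TGACGTCA was found in 1 (2.22%), against 1.70% of all promoters and 2.64% of those of genes with a probe set. The NRF1 motif was found in 2 (4.44%), against 0.849% and 1.47%. No member promoter held an overlap between different motifs, and in Gar1 the ETS motif overlapped itself on opposite strands. These are counts of letters, without a test, and say nothing about binding.

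Of the promoters below, Gnl3 and Utp4 both have an E-box whose first base lies 25 bases before the start, Nop58 has ETS motifs and no E-box, and Rrp12, the member with the largest change, has neither. Capitals mark CACGTG and CCGGAAG on either strand (CTTCCGG on the strand shown). Their positions are chr16:6219783-6220032 on the minus strand, chr19:51701991-51702240 on the plus strand, chr9:68614824-68615073 on the plus strand and chr1:250655319-250655568 on the minus strand, in that order.
Gnl3: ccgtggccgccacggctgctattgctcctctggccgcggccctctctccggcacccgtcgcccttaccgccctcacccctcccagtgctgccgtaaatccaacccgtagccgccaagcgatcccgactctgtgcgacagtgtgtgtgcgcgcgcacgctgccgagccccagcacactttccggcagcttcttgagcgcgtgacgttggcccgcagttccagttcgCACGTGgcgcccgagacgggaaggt
Utp4: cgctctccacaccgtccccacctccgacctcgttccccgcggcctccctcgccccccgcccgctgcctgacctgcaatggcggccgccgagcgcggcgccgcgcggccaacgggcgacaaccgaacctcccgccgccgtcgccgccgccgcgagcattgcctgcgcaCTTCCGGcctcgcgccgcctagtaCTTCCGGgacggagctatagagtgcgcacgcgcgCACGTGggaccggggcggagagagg
Nop58: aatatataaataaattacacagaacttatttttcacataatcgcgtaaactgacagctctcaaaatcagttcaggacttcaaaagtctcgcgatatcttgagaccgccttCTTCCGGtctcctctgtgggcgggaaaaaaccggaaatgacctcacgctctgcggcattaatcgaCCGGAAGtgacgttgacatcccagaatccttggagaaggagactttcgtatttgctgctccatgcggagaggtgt
Rrp12: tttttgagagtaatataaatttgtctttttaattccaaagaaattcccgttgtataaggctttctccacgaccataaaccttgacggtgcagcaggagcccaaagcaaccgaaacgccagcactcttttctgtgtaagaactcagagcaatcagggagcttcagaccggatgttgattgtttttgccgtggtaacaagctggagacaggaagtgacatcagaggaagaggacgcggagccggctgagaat

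At 1 h 1 of the 47 genes rose and 1 fell. The median change of the 47 genes was 0.09, against -0.03 over all genes tested, and 30 of 47 lay above 0. The riser was Gnl3 (nucleostemin, a nucleolar GTPase of 60S assembly), and the gene that fell was Rrs1, which helps bring the 5S particle into the large subunit. Over all genes 2.37% rose and 1.04% fell. Gnl3 read 7.74, 8.01 and 7.87 in vehicle and 8.70, 8.36, 8.74, 8.39 and 8.50 with isoproterenol. Every treated array was above every vehicle array. The change was 0.66 ± 0.14, or 1.59-fold (adjusted p = 0.00414), and it did not pass without the first vehicle array (adjusted p = 0.0568), with arrays centred on their medians (adjusted p = 0.12) or without normalization (adjusted p = 0.784).

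Rrs1 read 7.66, 7.93 and 7.64 in vehicle and 7.35, 7.16, 6.83, 7.15 and 6.87 with isoproterenol, all 5 below the vehicle arrays. Its change of -0.67 ± 0.19 (adjusted p = 0.045) was lost in 7 of the 8 fits that left out 1 array (adjusted p up to 0.255). Utp20, a large scaffold of the processome, had the lowest estimate (-0.79 ± 0.32, adjusted p = 0.28). Its treated arrays were spread widely, from 4.38 to 6.07. Treated arrays lay wholly above vehicle for 5 genes and wholly below for 4, where 7.50% and 8.54% of all genes did so.

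By 3 h 22 of the 47 genes rose and 1 fell, against 6.94% and 6.33% of all genes. The median change was 0.55, against -0.06 over all genes, and 42 of 47 estimates were above 0. The largest rises were in Rrp12, Nop58, Ddx21, Nip7 and Heatr1, which act at separate steps from methylation of the precursor to late subunit maturation. Arrays of the groups did not overlap for 25 genes, all higher, where 9.53% of all genes lay wholly above and 11.2% wholly below.

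**Figure D1:**
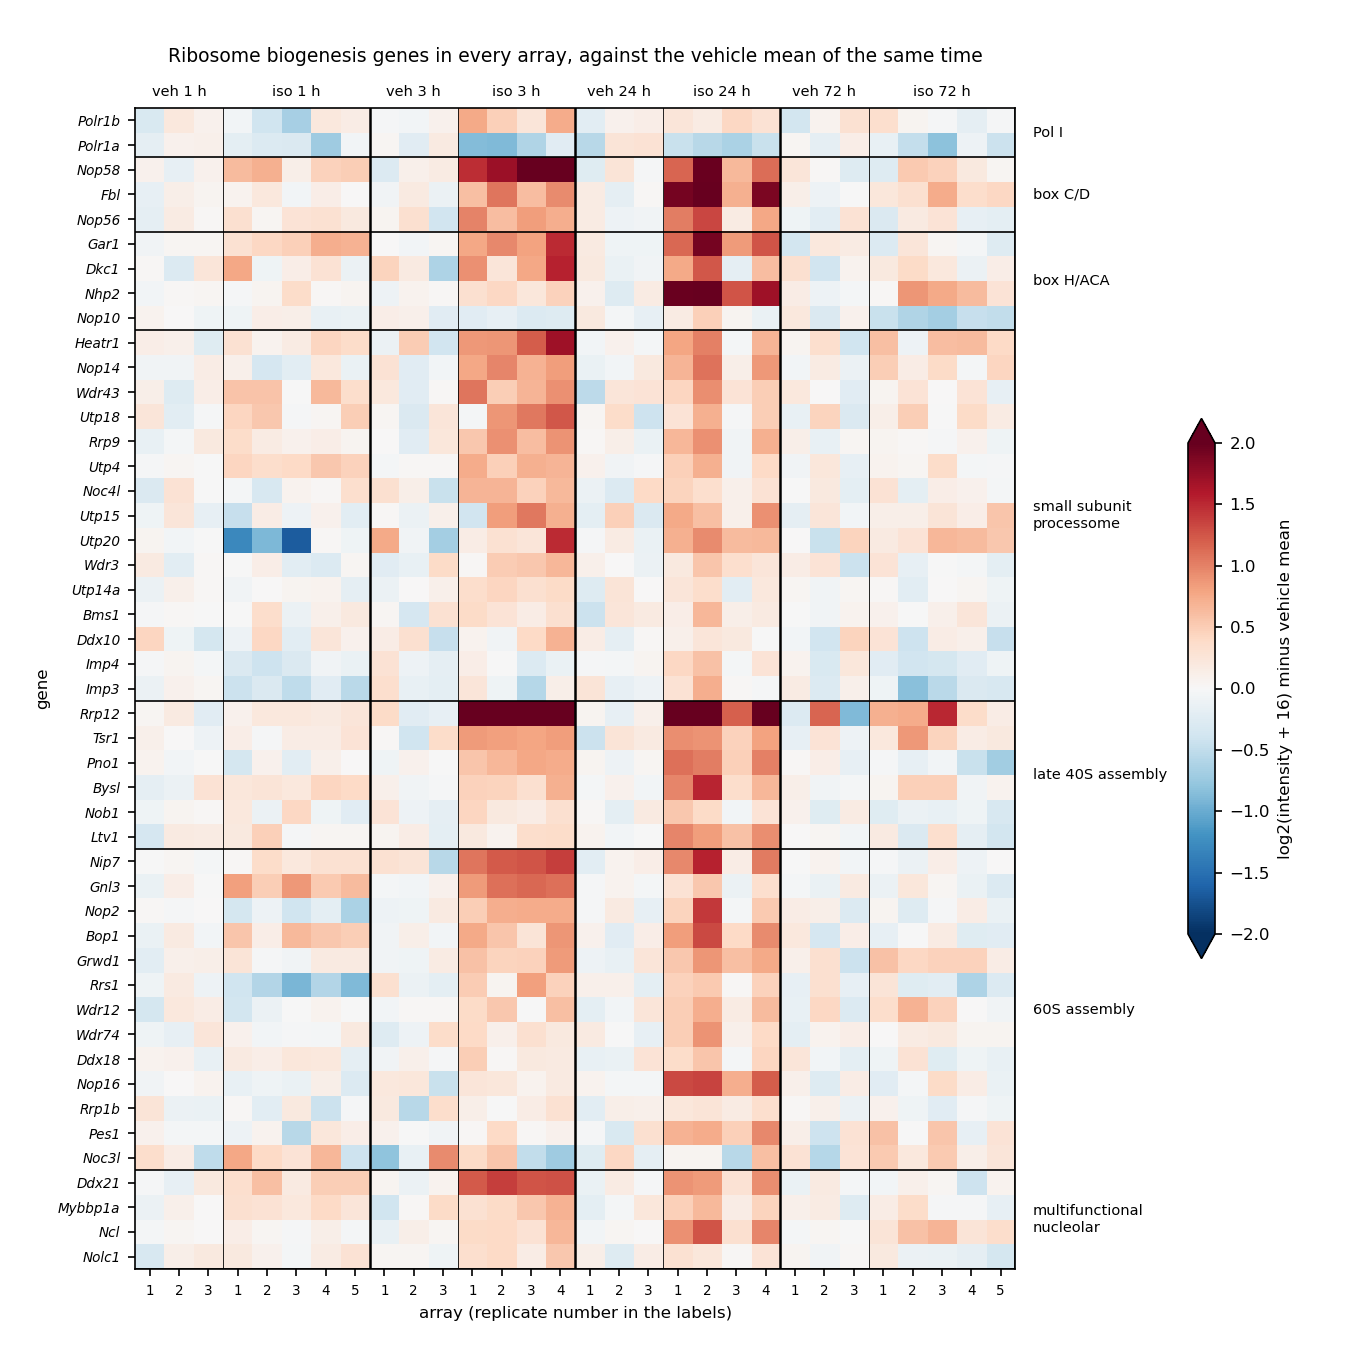
Log2 level of each of the 47 genes (rows, by role, ordered by the 3 h change) in each of the 30 arrays (columns, replicate number below), as the difference from the vehicle mean of the same time. The scale is log2(intensity + 16), red above and blue below that mean, with colours saturating at 2. Red fills the isoproterenol columns at 3 and 24 h, is paler in the third array at 24 h, and is sparse at 72 h.

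Rrp12, a HEAT-repeat protein of pre-ribosome maturation and export, read 6.14, 5.53 and 5.60 in vehicle and 8.41, 8.30, 8.0 and 8.61 with isoproterenol at 3 h. The groups were far apart. The change was 2.57 ± 0.32, or 5.95-fold (adjusted p = 8.39e-07). Its other probe sets gave 1.39 and 1.13.

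Nop58 rose with its partners in the box C/D particle, so that 3 of 3 measured core proteins were higher. Nop58 read 8.73, 9.11 and 9.18 in vehicle and 10.49, 10.72, 11.10 and 11.21 with isoproterenol, a change of 1.87 ± 0.23 or 3.67-fold (adjusted p = 4.07e-07). Fbl (fibrillarin, the methyltransferase of the particle) changed by 0.81 ± 0.21 and Nop56 by 0.79 ± 0.20. In the box H/ACA particle Gar1 (1.01) and Dkc1, the pseudouridine synthase (0.87), rose, while Nhp2 (0.36) and Nop10 (-0.23) did not pass. The treated and vehicle arrays of Dkc1 overlapped.

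Ddx21, an RNA helicase that acts in polymerase I transcription and precursor processing, read 8.26, 8.09 and 8.28 in vehicle and 9.44, 9.59, 9.47 and 9.49 with isoproterenol. The treated arrays were tightly grouped, more than 1 log2 unit above vehicle. The change was 1.28 ± 0.15, or 2.43-fold (adjusted p = 3.65e-07), and a second probe set gave 0.72. Ncl (nucleolin) changed by 0.44, while Nolc1 (0.36) and Mybbp1a (0.48) did not pass. Another of the 4 probe sets of Nolc1 did rise, by 0.99 (adjusted p = 0.00333).

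In the small subunit processome 7 of 15 genes rose. Heatr1, a large subunit of its first-binding complex, read 5.86, 6.48 and 5.59 in vehicle and 6.84, 6.86, 7.19 and 7.67 with isoproterenol, a change of 1.16 ± 0.24 (adjusted p = 0.00127). The treated arrays were all above vehicle, by a margin that was small for the second vehicle array. Nop14 (0.82), Wdr43 (0.79), Utp18 (0.78), Rrp9 (0.74), Utp4 (0.65) and Noc4l (0.62) were the others. The vehicle mean of Utp18 at 3 h, 5.05, lay under the log2 level of 5.29 at which the filter was set. The remaining 8 (Utp14a, Utp15, Utp20, Wdr3, Imp3, Imp4, Bms1 and Ddx10) lay between -0.07 and 0.56. A second probe set of Utp15 gave 0.56 with an adjusted p of 0.0286.

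Late 40S factors that rose, besides Rrp12, were Tsr1 (0.82) and Pno1 (0.68), so 3 of 6. Bysl (0.49), Nob1, the nuclease of the last 18S cut (0.28), and Ltv1 (0.25) did not pass. Of the 13 measured 60S factors 5 rose. Nip7 read 6.86, 6.82 and 6.0 in vehicle and 7.63, 7.78, 7.82 and 7.95 with isoproterenol, without overlap, a change of 1.23 ± 0.21 (adjusted p = 0.000127). Gnl3, already higher at 1 h, changed by 1.05 ± 0.15 (adjusted p = 6.86e-06). Nop2, an RNA methyltransferase (0.68), Bop1 (0.61) and Grwd1 (0.59) also rose. Bop1 forms a complex with Pes1 (0.13) and Wdr12 (0.38), which did not pass. Noc3l, Nop16, Rrs1, Wdr74, Ddx18 and Rrp1b lay between -0.06 and 0.46. A second probe set of Rrp1b gave 0.75 with an adjusted p of 0.0269.

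Polr1a, the largest subunit of RNA polymerase I, was the 1 gene that fell. It read 7.48, 7.20 and 7.62 in vehicle and 6.57, 6.55, 6.84 and 7.21 with isoproterenol, overlapping in the fourth treated array. The change was -0.64 ± 0.20, or 0.64-fold (adjusted p = 0.0376), and it was lost in 5 of 7 fits that left out 1 array (adjusted p up to 0.12). The second-largest subunit, Polr1b, had 0.55 ± 0.20 (adjusted p = 0.0667), with its treated arrays wholly above vehicle.

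With each array of the 3 h groups left out in turn, 13 of the 22 rises passed in every fit, and Ncl, Dkc1, Utp18, Nop2, Noc4l, Bop1, Grwd1, Nop56 and Wdr43 did not. Without any normalization between arrays only Nop58 and Rrp12 passed, and 478 probe sets of the whole array did in place of 2764.

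**Figure D2:**
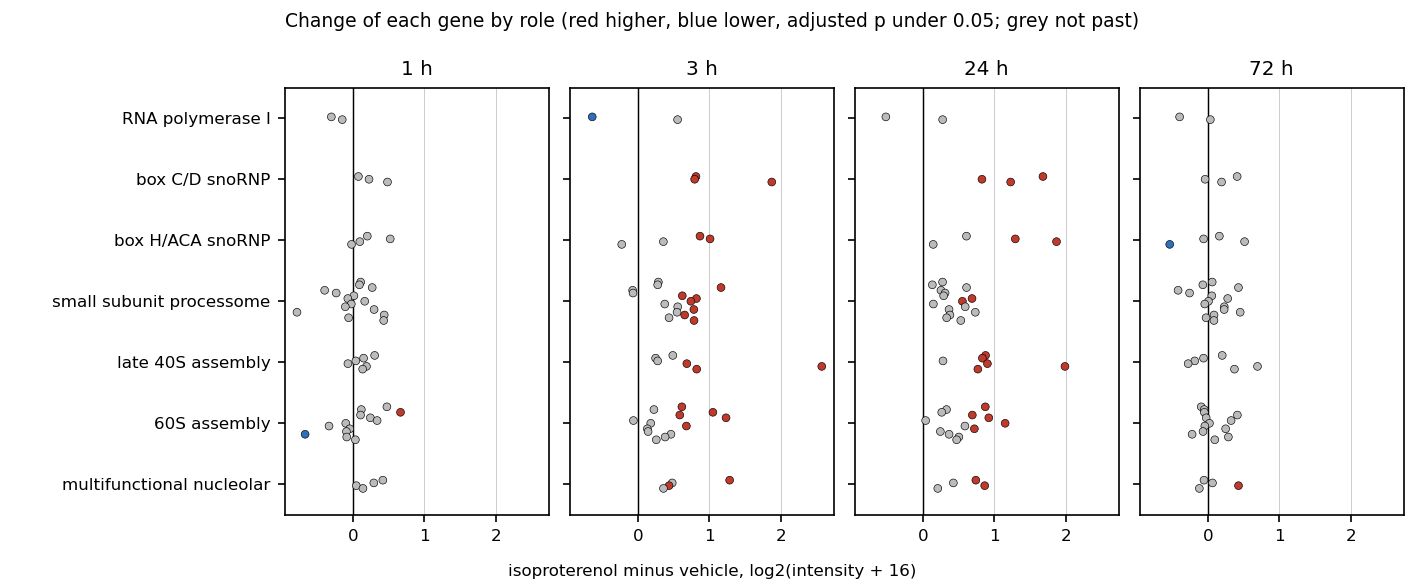
Change of each gene (isoproterenol minus vehicle, log2(intensity + 16), horizontal) by role (vertical) at 1, 3, 24 and 72 h. Red points rose, blue points fell and grey points did not pass. Each of the 3 box C/D genes is red at 3 and 24 h. Red processome genes number 7 at 3 h and 2 at 24 h, and those of late 40S assembly 3 and 5. By the direct test of the difference between these times, 0 of 15 and 0 of 6 genes passed, so the counts do not show a shift between roles.

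At 24 h 19 genes were higher and 0 lower, against 10.0% and 7.19% of all genes. The median change was again 0.55, against -0.01 over all genes, and 46 of 47 estimates were above 0, Polr1a (-0.52 ± 0.20, adjusted p = 0.0943) being the exception. Rrp12, Nhp2, Fbl, Gar1 and Nop58 led. The 14 genes higher at both times were 63.6% of the 3 h list and 73.7% of the 24 h list. The same overlap was not counted over all genes, so these shares do not set the members apart. Treated arrays lay wholly above vehicle for 22 genes and wholly below for 0, where 13.0% and 12.5% of all genes did.

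Nhp2, the box H/ACA protein that had not passed at 3 h, read 7.43, 7.08 and 7.51 in vehicle and 9.31, 9.90, 8.60 and 9.03 with isoproterenol at 24 h. The groups were more than 1 log2 unit apart. The change was 1.87 ± 0.20, or 3.66-fold (adjusted p = 8.55e-07). Gar1 read 6.88, 6.61 and 6.62 against 7.85, 8.62, 7.55 and 7.96, a change of 1.29 ± 0.20 or 2.45-fold (adjusted p = 9.03e-05). Dkc1 (0.61) and Nop10 (0.14) did not pass, so 2 of 4 rose.

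Fbl read 8.38, 8.04 and 8.24 in vehicle and 10.13, 10.43, 8.93 and 10.11 with isoproterenol. The third treated array was more than 1 log2 unit below the others and still above vehicle. Its change of 1.68 ± 0.21 was 3.21-fold (adjusted p = 5.72e-06). Nop58 read 8.46, 8.97 and 8.69 against 9.88, 10.68, 9.35 and 9.83, a change of 1.23 ± 0.23 (adjusted p = 0.000492). Nop56 changed by 0.83 (adjusted p = 0.00538), although its second probe set gave 0.27 and did not pass.

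Among late 40S factors 5 of 6 rose. Rrp12 read 6.36, 6.13 and 6.41 in vehicle and 8.30, 8.75, 7.50 and 8.61 with isoproterenol, a change of 1.99 ± 0.32 or 3.97-fold (adjusted p = 0.000126). Again the third treated array was the lowest, and none overlapped vehicle. Pno1 (0.90), Bysl (0.88), Ltv1 (0.83) and Tsr1 (0.77) followed, and Nob1 (0.28) did not pass.

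Of the 60S factors 5 of 13 rose. Nop16, a nucleolar factor of 60S assembly, read 8.01, 7.92 and 7.92 in vehicle and 9.27, 9.30, 8.67 and 9.16 with isoproterenol, well apart. The change was 1.15 ± 0.17, or 2.22-fold (adjusted p = 4.94e-05). Nip7 (0.92), Bop1 (0.87), Pes1 (0.72) and Grwd1 (0.69) were the others, and Wdr12 (0.50), Nop2 (0.59) and Gnl3 (0.26) were among those that did not pass. Noc3l, Rrs1, Wdr74, Ddx18 and Rrp1b lay between 0.04 and 0.47.

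Of 15 processome genes, Nop14 (0.69) and Rrp9 (0.55) rose, and the other 13 lay between 0.13 and 0.73. Ncl read 10.34, 10.44 and 10.41 in vehicle and 11.31, 11.65, 10.71 and 11.38 with isoproterenol, a change of 0.87 ± 0.14 (adjusted p = 0.000183). Its treated arrays were all above vehicle. Ddx21 changed by 0.74 (adjusted p = 0.00148), and its second probe set gave 0.27 and did not pass. Nolc1 (0.21) and Mybbp1a (0.43) did not pass, although the probe set of Nolc1 that had risen at 3 h did (0.82, adjusted p = 0.0153). Polr1b had 0.28.

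Leaving out the third isoproterenol array at 24 h brought the count of risen genes from 19 to 29. In the fits that left out each array in turn, 15 of the 19 passed every time, and Rrp9, Nop14, Pes1 and Tsr1 did not.

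**Figure D3:**
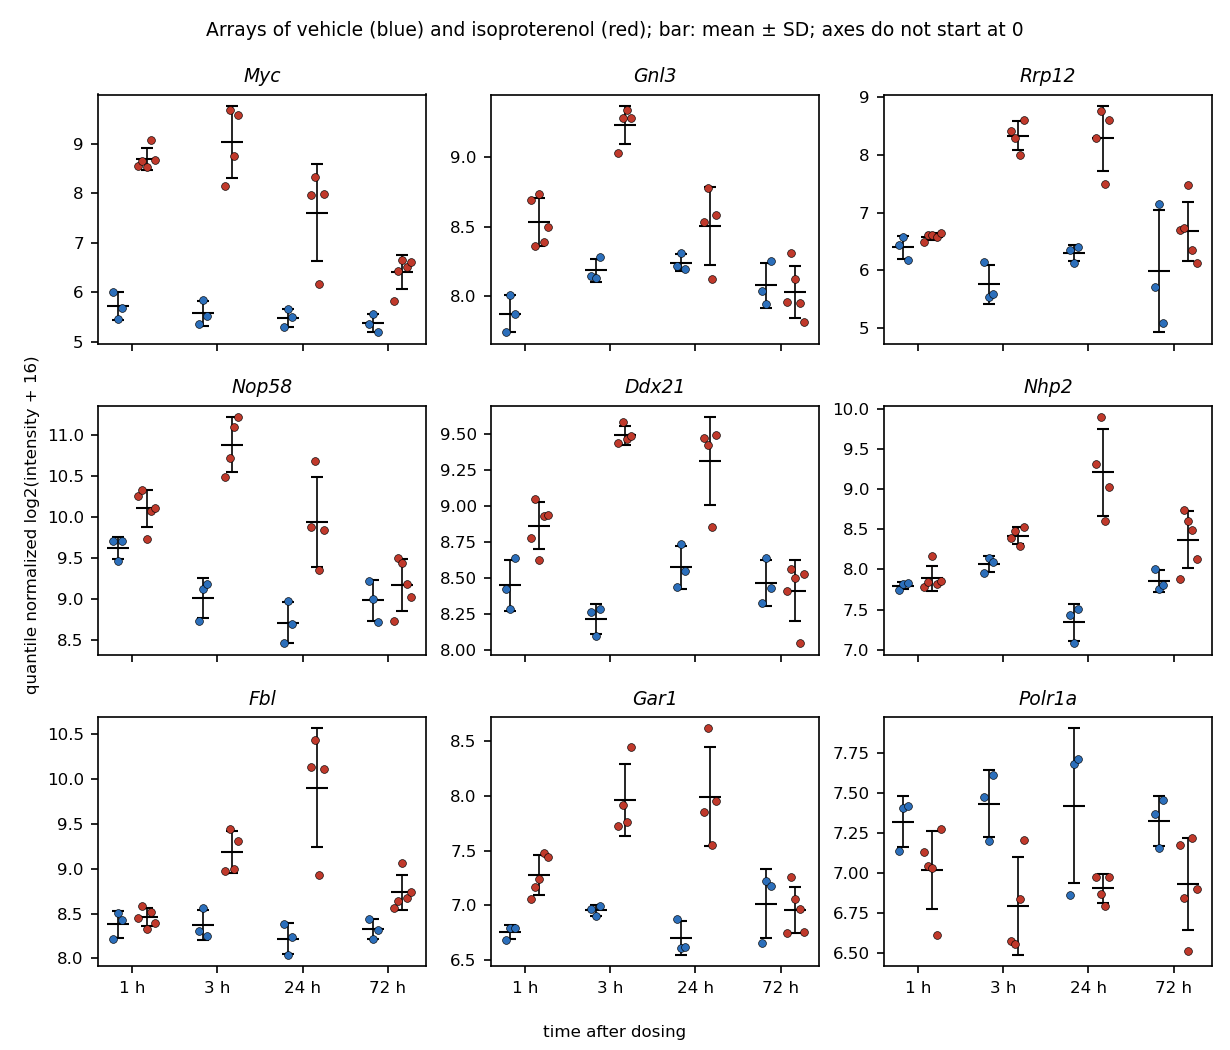
Log2 level (quantile normalized log2(intensity + 16), vertical, not from 0) of Myc and 8 ribosome biogenesis genes in vehicle (blue) and isoproterenol (red) arrays at each time (horizontal), with mean ± SD. Gnl3 is highest at 3 h, Nhp2 and Fbl are highest at 24 h, and Polr1a lies lower in most treated arrays.

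At 72 h few of these genes differed from vehicle. Ncl rose and Nop10 fell, against 13.3% and 8.71% of all genes, and the median change was 0.04, against 0.01 over all genes. Ncl read 10.21, 10.29 and 10.24 in vehicle and 10.51, 10.84, 10.92, 10.51 and 10.60 with isoproterenol, without overlap. Its change was 0.43 ± 0.14, or 1.35-fold (adjusted p = 0.0286). Nop10, the smallest box H/ACA protein, read 11.06, 10.56 and 10.94 against 10.42, 10.26, 10.18, 10.40 and 10.36, all lower. Its change was -0.53 ± 0.13 (adjusted p = 0.00382).

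Neither call held in every fit that left out 1 array: Ncl was lost in 4 of 8 fits (adjusted p up to 0.105), and Nop10 without the first vehicle array (adjusted p = 0.0557). Rrp12 had the highest estimate (0.70 ± 0.31, adjusted p = 0.122) with vehicle arrays at 5.70, 7.15 and 5.09, a spread that took in most of the treated values. Treated arrays lay wholly above vehicle for 2 genes and wholly below for 1, where 11.8% and 7.34% of all genes did.

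The difference between the changes at successive times, later minus earlier and with its sign, was tested directly. From 1 to 3 h it was above 0 for 4 genes and below 0 for none, against 0.522% and 0.209% of all genes. It was 2.39 ± 0.45 (adjusted p = 0.00634) for Rrp12, 1.39 ± 0.31 (adjusted p = 0.0277) for Nop58 and 0.87 ± 0.21 (adjusted p = 0.0497) for Ddx21, whose changes were all larger at 3 h. For Rrs1 it was 1.13 ± 0.27 (adjusted p = 0.0434), from a change of -0.67 at 1 h to one of 0.46 at 3 h that did not pass. Rrp12 passed in all 15 fits that left out 1 array, and Ddx21 was lost in 14 of them, Rrs1 in 12 and Nop58 in 6.

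From 3 to 24 h the difference was above 0 for Nhp2 (1.52 ± 0.29, adjusted p = 0.00144) and Nop16 (0.97 ± 0.24, adjusted p = 0.0124) and below 0 for Gnl3 (-0.79 ± 0.21, adjusted p = 0.0213), against 4.84% and 3.49% of all genes. For the other 44 genes a difference between 3 and 24 h did not pass. The estimate was larger at 3 h than at 24 h for 23 of 47 genes. Gnl3 was lost in 2 of 14 fits that left out 1 array (adjusted p up to 0.0539), and Nhp2 and Nop16 in none.

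From 24 to 72 h the difference was below 0 for 9 genes and above 0 for none, against 0.875% and 1.84% of all genes below and above. The 9 were Nhp2 (-1.36 ± 0.28), Gar1 (-1.35 ± 0.28), Fbl (-1.27 ± 0.29), Pno1 (-1.18 ± 0.23), Nop16 (-1.13 ± 0.23), Bop1 (-0.97 ± 0.26), Ltv1 (-0.89 ± 0.24), Ddx21 (-0.80 ± 0.21) and Nop10 (-0.68 ± 0.19). Nop10 went from a change of 0.14 at 24 h, which did not pass, to one of -0.53 at 72 h, and the other 8 had risen at 24 h. Their adjusted p lay between 0.00449 for Pno1 and 0.048 for Nop10. The count was 15 without the third isoproterenol array at 24 h, and 4 without the second vehicle array at 24 h or the first at 72 h. Of 15 fits that left out 1 array, Bop1 and Ltv1 were lost in 11, Ddx21 and Nop10 in 10 and Fbl in 2. Nhp2, Gar1, Pno1 and Nop16 passed in every such fit.

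Without drug, none of the 47 genes differed among the vehicle times in limma's F test (0 called, 3 at an unadjusted p under 0.05; 0.0562% of all genes called). With array weights 2 were called. The 3 were Nop58, Nop10 and Nhp2. Nop58 had vehicle means of 9.62, 9.01, 8.71 and 8.98 at 1, 3, 24 and 72 h (adjusted p = 0.256). Nhp2 had its lowest vehicle mean, 7.34, at 24 h, the time of its largest change, and means of 7.80, 8.07 and 7.86 at the other times (adjusted p = 0.344).

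Other assembly factors, outside the 48, were read in the same fit. This list too was chosen with earlier results of these data known. Of 86 measured assembly factors, 1 rose at 1 h, 28 rose and 1 fell at 3 h, and 25 rose at 24 h. At 72 h 6 rose and 3 fell, and the median changes were 0.02, 0.46, 0.33 and 0.04 in time order. Over all genes 2.37%, 6.94%, 10.0% and 13.3% rose and 1.04%, 6.33%, 7.19% and 8.71% fell, so at 72 h the counts were not above those shares. Nol10 (0.64 ± 0.15) was the riser at 1 h. Rrp8, a nucleolar methyltransferase (1.40 ± 0.22), Ddx56 (1.35 ± 0.27) and Mdn1, a giant ATPase of 60S maturation (1.28 ± 0.33), had the largest rises at 3 h, and Nol7 fell (-0.45 ± 0.14). Ebna1bp2 (1.37 ± 0.20), Polr1g (1.23 ± 0.32) and Nol12 (1.21 ± 0.25) led at 24 h. Wdr46 (0.87), Riok1 (0.70) and Polr1d (0.70) rose most at 72 h, when Gnl3l, Utp6 and Nol11 fell by 0.44, 0.44 and 0.39. With 1 array left out the counts of risers ranged from 0 to 1, 16 to 28, 11 to 32 and 2 to 6 in time order, lowest without the second vehicle array at 1 and 3 h, the second isoproterenol array at 24 h and the third vehicle array at 72 h. Without normalization 0 rose at 3 h and 37 at 24 h.

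Cytosolic ribosomal protein genes encode the structural parts that these factors assemble. At 1 h 0 of 43 passed and at 3 h 0 rose and 1 fell (Rpl37a, -1.54 ± 0.49, adjusted p = 0.0357), with 2 and 4 at an unadjusted p under 0.05. At 24 h 31 of 43 rose and at 72 h 16 did, against 10.0% and 13.3% of all genes. Median changes were -0.05, -0.08, 0.54 and 0.32 in time order. Rpl3, a core 60S protein, led with 1.51 ± 0.24 at 24 h and 1.62 ± 0.23 at 72 h. The change at 24 h was higher than that at 3 h for 21 of 43 by the test of the difference and lower for 0, and between 24 and 72 h 0 differed by the threshold (3 at an unadjusted p under 0.05). With arrays centred on their medians the counts were 12 at 24 h and 8 at 72 h, and with trimmed mean scaling 9 and 5. With 1 array left out they ranged from 16 (without the third vehicle array) to 33 at 24 h, and from 9 (without the second vehicle array) to 28 (without the first isoproterenol array) at 72 h.

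**Figure D4:**
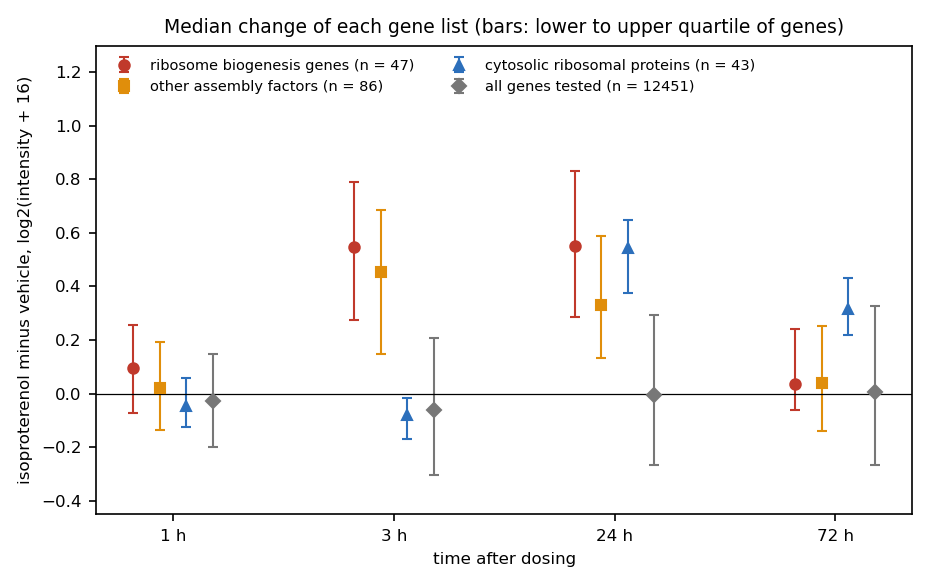
Median change (points) and lower to upper quartile of genes (bars) of isoproterenol minus vehicle, log2(intensity + 16), for 47 ribosome biogenesis genes, 86 other assembly factors, 43 cytosolic ribosomal protein genes and all 12451 genes, by time. Assembly factors lie above all genes at 3 and 24 h, and ribosomal protein genes at 24 and 72 h.

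Myc rose at all 4 times. It read 6.01, 5.46 and 5.68 in vehicle and 8.55, 8.64, 8.52, 9.08 and 8.66 with isoproterenol at 1 h, a change of 2.98 ± 0.33 (adjusted p = 1.31e-07). At 3 h it read 5.35, 5.85 and 5.52 against 8.14, 9.68, 8.74 and 9.57, a change of 3.46 ± 0.34 (adjusted p = 1.14e-08). Every treated array was more than 2 log2 units above vehicle at both times, and at 1 h this stood beside 1 risen gene among the 47. At 24 h it read 5.30, 5.65 and 5.50 against 7.96, 8.32, 6.17 and 7.99, with the third treated array again the lowest, and the change was 2.13 ± 0.34 (adjusted p = 0.000119). At 72 h the change was 1.03 ± 0.33 (adjusted p = 0.026), lost in 4 of 8 fits that left out 1 array (adjusted p up to 0.112).

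Markers of other cells also moved. Of 12 monocyte and macrophage markers, 1, 2, 8 and 11 rose at 1, 3, 24 and 72 h, and none fell. Their summed log2 intensity was 10.83 to 11.46 in vehicle and 12.45 to 13.65 with isoproterenol at 24 h, and 10.55 to 10.97 and 11.67 to 13.66 at 72 h, when 1 of the 47 ribosome biogenesis genes rose and 1 fell. At 3 h it was 10.95 to 11.15 in vehicle and 11.20 to 11.51 with isoproterenol. Of 8 proliferation markers, 0, 0, 4 and 6 rose, and of 5 neutrophil markers 2, 4, 1 and 0. Summed neutrophil intensity at 3 h was 7.04 to 7.87 in vehicle and 8.76 to 9.41 with isoproterenol. At 24 h summed proliferation intensity was 7.97 to 8.16 and 8.59 to 9.97. The lowest treated array at 24 h for macrophage markers was the one lowest for the ribosome biogenesis genes. That array, the third, was also the dimmest of its group, with a median before normalization of 35.2 against 57.6 to 70.3. It was lowest for proliferation markers too (8.59 against 9.57 to 9.97). Its difference between 3′ and 5′ beta-actin probe sets was the largest (1.34 against 0.88 to 1.09). The part of these cells and of array brightness in the changes was not tested.

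Of the 7 cardiomyocyte markers all estimates lay below 0 at 24 h, with a median of -0.12, and Ryr2 fell (-0.52 ± 0.16, adjusted p = 0.029). Treated arrays lay wholly below vehicle for 3 of them, and the log2 of the summed intensity of all 7 was 15.91 to 15.96 in vehicle and 15.68 to 15.87 with isoproterenol. None passed at the other times. Fibroblast markers (7 measured) had 5 risers at 72 h and 1 at each of 3 and 24 h, with 1 lower at 1 h and 1 at 24 h. Of 5 endothelial markers 1 fell at 3 h and 1 at 24 h. The 3 measured lymphocyte markers did not pass at any time, and Cd3e, Cd4 and Cd8a lay near the filter level of 5.29, with vehicle means of 5.37, 5.44 and 4.92 at 1 h. The difference between 3′ and 5′ beta-actin probe sets, a sign of RNA integrity, was 1.75 to 2.07 with isoproterenol at 3 h against 0.84 to 1.96 in vehicle. At 24 h it was 0.88 to 1.34 against 1.46 to 1.92. For Gapdh the same difference overlapped between the groups at both times. It was 0.31 to 0.46 with isoproterenol against 0.27 to 0.43 at 3 h, and 0.33 to 0.51 against 0.32 to 0.37 at 24 h. The part of these cell markers and of these 3′ to 5′ differences in the changes was not tested.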

How the data were processed

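Values came from the deposited table of linear intensity, which held 31099 probe sets for each of 30 Affymetrix rat whole-genome arrays. The authors' summarisation and scaling of that intensity are not given in the sources used. After 57 control probe sets were removed, 24292 probe sets that reached an intensity of 23 (the 40th percentile) in at least 3 arrays were tested. Log2(intensity + 16) was quantile normalized, which removes a change shared by most transcripts.

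limma 3.58.1 in R 4.3.3 fitted 8 group means with an intensity trend (22 residual degrees of freedom), two-sided, with Benjamini-Hochberg adjustment within each contrast. The script was tested on simulated data. Probe sets were named through the platform annotation updated by gene number, leaving 436 with several genes and 9780 not listed there.

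At each time the 5 largest rises and falls among members that passed were named in full, of other assembly factors the 3 largest each way, and every measured gene of the MYC network. Other members are given by role, and probe sets of a named member where calls differed. The members and lists were chosen with earlier results of these data known. Alternatives covered the pseudocount, filter, normalization, variance model, arrays in the fit, replicate block and each array left out. Promoters were read from RefSeq (GRCr8).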

Additional observations from a re-analysis of the deposited data

Results flagged for a closer look

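Chance puts about 1 in 20 groups past the limit used for a lone array, and 19 groups were tested. The mean log2 level of the 47 genes in the 4 isoproterenol arrays at 3 h passed it: the fourth array, at 8.21, was apart from the others at 8.0 to 8.02, a gap of 0.87 of the whole range. Without it the count of risen genes at 3 h was 15 in place of 22.

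The effect of isoproterenol differed between successive times by limma's test of the difference for these genes. Not all of these calls were stable: from 1 to 3 h Ddx21 was lost in 14 of 15 fits that left out 1 array and Rrs1 in 12. Losses of the other genes are given with the results. From 3 to 24 h the difference passed above 0 for 4.84% of all genes and below 0 for 3.49%. Differences are later minus earlier change. From 1 to 3 h the difference was 2.39 for Rrp12, 1.39 for Nop58, 1.13 for Rrs1, whose change turned from -0.67 to 0.46, and 0.87 for Ddx21. From 3 to 24 h it was 1.52 for Nhp2, 0.97 for Nop16 and -0.79 for Gnl3. From 24 to 72 h it was -1.36 for Nhp2, -1.35 for Gar1, -1.27 for Fbl, -1.18 for Pno1 and -1.13 for Nop16. The same difference was -0.97 for Bop1, -0.89 for Ltv1, -0.80 for Ddx21 and -0.68 for Nop10, whose change turned from 0.14 to -0.53.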

How the results depend on the processing

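Gene results that passed the threshold were recomputed, and none of their values reversed under any alternative. Reversals among results that did not pass were not counted. Of 726 recomputed gene calls under other settings 586 were kept and 140 lost, and of 593 with an array left out 445 were kept and 148 lost. All 22 and 19 rises kept their direction. Of them, 2 at 3 h and 15 at 24 h passed in every other setting. Array medians on the log2 scale spanned 1.21, and without normalization the median change of all probe sets was -0.23, -0.19, 0.47 and 0.36 at 1, 3, 24 and 72 h, and that of the members -0.17, 0.34, 1.21 and 0.55. The cause of the differences between settings was not tested. Probe sets called on the whole array at 1 h were 643, and 190 without normalization, 1699 with array weights and 1317 with only the arrays compared. At 3 h they were 2764, and 478 without normalization and 1332 with only the arrays compared. At 24 h they were 3169, and 5249 with array weights and 2103 with only the arrays compared. At 72 h they were 4333, and 2380 without normalization, 7200 with array weights and 2398 with only the arrays compared. Members higher at 1 h (1) were 0 with median centring or no normalization, 5 with array weights and 4 with only the arrays compared. Members lower at 1 h (1) were 0 with a pseudocount of 64, no filter, median centring, no normalization or no intensity trend. Members higher at 3 h (22) were 2 without normalization. Members lower at 3 h (1) were 0 with median centring, no normalization, array weights or only the arrays compared. Members higher at 72 h (1) were 2 with median centring or trimmed mean scaling, 0 without normalization, without the trend or with only the arrays compared, and 5 with array weights. Members lower at 72 h (1) were 0 with median centring or no normalization and 3 with array weights. Different effects at 1 and 3 h (4) were 2 with no filter or median centring, 0 without normalization and 1 without the trend. Different effects at 3 and 24 h (3) were 1 with median centring or no normalization. Different effects at 24 and 72 h (9) were 2 with median centring, 0 without normalization or with only the arrays compared, 5 with trimmed mean scaling or no trend, and 16 with array weights. Differences among vehicle times (0) were 2 with array weights. With each array left out in turn, probe sets called ranged from 393 to 608 at 1 h, 1869 to 3025 at 3 h, 1584 to 4415 at 24 h and 2418 to 5648 at 72 h. Members higher ranged from 0 to 1, 15 to 21, 15 to 29 and 0 to 3, and members lower from 0 to 1 at every time. Different effects ranged from 1 to 3 (1 and 3 h), 2 to 5 (3 and 24 h) and 4 to 15 (24 and 72 h), and the vehicle count stayed at 0. Same-numbered arrays of both groups deviated together (correlation above 0.1) in 2 of 12 pairs, with correlations from -0.07 to 0.12. Correlations this weak cannot settle whether the numbers pair the samples. With the replicate block members higher were 1, 16, 18 and 1 and members lower 0, 1, 0 and 1, and different effects were 2, 3 and 5. Dim genes near an intensity of 23 are limited by signal over background.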

Other observations

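Of the MYC network, 11 genes were measured, and besides Myc itself 3 passed at some time. Mxd1, a partner of MAX that opposes MYC, rose at 3 h by 1.14 ± 0.25 (limma adjusted p = 0.00178), although its arrays overlapped. Mxi1, of the same kind, fell by 0.58 at 3 h (adjusted p = 0.00825) and by 0.74 at 24 h (adjusted p = 0.00111), with every treated array below vehicle at both times. Mycl fell by 0.94 at 3 h (adjusted p = 0.0434) and rose by 0.87 at 72 h (adjusted p = 0.0364). Its change at 24 h (0.60, not past) was higher than that at 3 h by 1.54 (adjusted p = 0.029). The arrays of Mycl overlapped at 3 h (5.83 to 6.47 in vehicle, 4.34 to 6.16 with isoproterenol) and not at 72 h. Its treated mean at 3 h, 5.13, lay under the filter level of 5.29. Max lay between -0.16 and 0.22 at the 4 times, Mlx between -0.22 and 0.32, Mlxip between -0.09 and 0.14, Mxd3 between -0.20 and 0.31 and Mxd4 between -0.59 and -0.07. Mnt reached 0.64 at 3 h (adjusted p = 0.0613), and Mycn lay between -0.78 and -0.07, none of them past the threshold. These genes were not tested against the ribosome biogenesis genes.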
